A study of Drosophila melanogaster with 4 samples.

Results

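The genes described here were lower in Drosophila melanogaster pole cells whose mothers carried a Gal4 driver than in pole cells without it, on every array of the study. They were chosen by their measured ratios: a gene entered where the mean over its probes was at or below -0.05 on the log10 scale, that is at or below -0.17 on the log2 scale or at least 1.12-fold lower, on all 4 arrays. Genes of some large families (ribosomal proteins, oxidative phosphorylation, proteasome, initiation factors, glutathione S-transferases, cuticle proteins and chemosensory receptors) were left out by their symbols. This gave 102 of 10804 measured genes. Since the ratios chose the genes, the ratios are given as a description and carry no test.

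RNA of FACS-sorted pole cells from embryos of stages 8 to 14, marked by EGFP-Vas, was compared on 4 arrays of 2 colours. In the driven group, nosGal4:VP16/nosGal4:VP16 mothers were crossed to fathers carrying UAS-tao-1 in the form D168A (dominant negative per the labels) or D168D (called overexpression in the labels, and wild-type in the series title), together with EGFP-Vas. In the non-driven group, yw mothers were crossed to the same fathers, so that both groups carry the UAS transgene and the marker from the father and differ in the mother. The effect of the mothers' genotype and that of the expressed kinase cannot be told apart. The nos promoter is active in the female germ line, so the driver product is loaded maternally, and the cells were pooled over embryos by sorting. Each form has 2 arrays of opposite dye, which count as 1 replicate. They are called A-Cy3 and A-Cy5 for D168A and D-Cy3 and D-Cy5 for D168D, after the dye of the driven RNA, and values of a pair are given in that order. A number behind ± says how far each array of a pair lay from the pair's mean, which reflects hybridisation and dye only. Behind a difference between the forms, it says how far the differences in the 2 dye orientations lay from their mean.

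Pole cells are the primordial germ cells of the fly. They form at the posterior pole, inherit maternal germ plasm, keep their own transcription low at first, and migrate through the midgut to join the somatic gonad. Tao is a Ste20-family kinase known to act upstream of Hippo signalling and on microtubules. Much RNA in these cells is maternal, and in a bulk sample a lower ratio cannot separate less RNA per cell from fewer cells that hold it.

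As a check of direction, Tao itself (NCBI Gene 32948) was at 2.98 and 2.84 in the D168A pair and at 3.04 and 2.99 in the D168D pair on the log2 scale. It was the highest of the 154 genes that lay at or above 0.05 (log10) on all 4 arrays after the same families were left out. Across all genes the arrays agreed poorly, with Pearson's r of -0.10 between the D168A arrays and 0.01 between the D168D arrays (10804 genes, a description). Between arrays of the 2 forms r ran from -0.15 to 0.36. The files hold ratios without intensities, so it could not be checked which germ-line markers were present in the sorted cells, nor how bright any of the genes was.

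The number of genes lower throughout was small and close to the number with a dye pattern. Before families were left out, 110 of 10804 genes (1.02%) were at or below the threshold on all 4 arrays, and 158 (1.46%) were at or above it on all 4. The pattern in which driven RNA was lower when in Cy3 and higher when in Cy5, in both forms, held for 145 genes (1.34%), and the opposite dye pattern for 107 (0.99%). A dye effect gives such patterns, and they were as common as the pattern that defines the genes described here. At a threshold of -0.1 (1.26-fold) on every array, 18 genes were lower throughout, 40 were higher throughout, and each of the 2 dye patterns held for 23. At 0.15 the counts were 4 lower, 20 higher, and 5 and 4 with the dye patterns. How far dye made single genes pass was not tested.

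**Figure D1:**
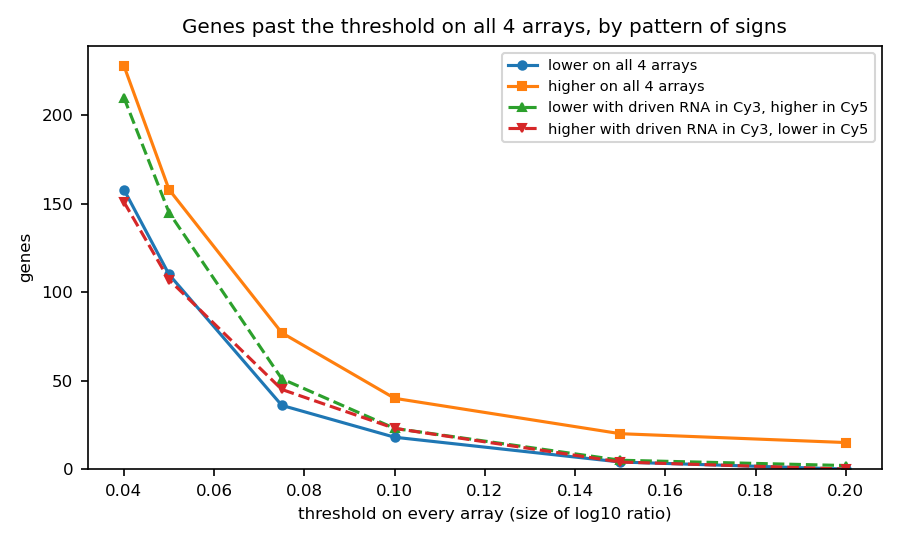
Number of genes (y axis, all 10804 genes) past a threshold on every one of the 4 arrays, against the size of the threshold in log10 units (x axis), for 4 patterns of signs. At 0.05 the counts are 110 lower, 158 higher, and 145 and 107 with the dye patterns, and at 0.2 there are 15 higher genes and 0 lower ones.

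The members can be set beside the genes lower with a single form or in a single dye orientation. Of 10318 genes outside the left-out families, 359 were at or below the threshold on both D168A arrays and 779 (7.55%) on both D168D arrays. The 102 shared genes make up 28.4% of the D168A genes and 13.1% of the D168D genes. Another 591 genes were higher on both D168A arrays, and 15 of them (2.54%) were lower on both D168D arrays. Grouped by dye, 949 genes were lower on A-Cy3 and D-Cy3, and 102 of these (10.7%) were lower on A-Cy5 and D-Cy5 too, as were 846 (8.20%) of all 10318. Of 1026 genes higher on A-Cy3 and D-Cy3, 105 (10.2%) were lower on A-Cy5 and D-Cy5. The same ratios chose the members, so nothing is read from these shares. The pairs of the 2 forms have separate non-driven samples and share the mothers' genotypes.

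The differences were small. The mean over the 4 arrays ran from -0.76 to -0.21 on the log2 scale with a median of -0.38, which is 1.69-fold, 1.16-fold and 1.3-fold lower. A mean of -0.5 or lower was reached by 20 of the 102 genes.

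At the low end stood CG10063, lectin-24Db and Rbm13. CG10063 (NCBI Gene 38764) was at -0.64 and -0.56 in the D168A pair and -1.17 and -0.66 in the D168D pair, a mean of -0.76. It had the lowest mean of all, and its D-Cy3 value stood apart from the other 3. The C-type lectin gene lectin-24Db (NCBI Gene 53550) was at -1.25 and -0.77 in the D168A pair and -0.71 and -0.27 in the D168D pair. Here both D168A arrays lay below both D168D arrays.

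Rbm13 (NCBI Gene 31818), whose yeast homologue Mak16 is needed to build the large ribosomal subunit, was at -0.55 and -0.56 in the D168A pair and -1.01 and -0.76 in the D168D pair. Both of its probes passed the threshold on all 4 arrays, with means of -0.90 and -0.55. The other ribosome assembly gene among the members was Ip259, the homologue of yeast Nsa2, at -0.21 ± 0.01 with D168A and -0.44 ± 0.12 with D168D. CG4045, which RefSeq also lists as METTL1, a tRNA methyltransferase in mammals, was at -0.28 ± 0.02 and -0.69 ± 0.30. RNaseX25, a ribonuclease of the T2 family, was among the most even genes, with all 4 arrays between -0.34 and -0.25. All 4 genes with roles in RNA and ribosomes were lower with D168D than with D168A by the form means. So were 79 of all 102 members. For RNaseX25 the order was the reverse between A-Cy5 and D-Cy5, at -0.29 and -0.25.

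**Figure D2:**
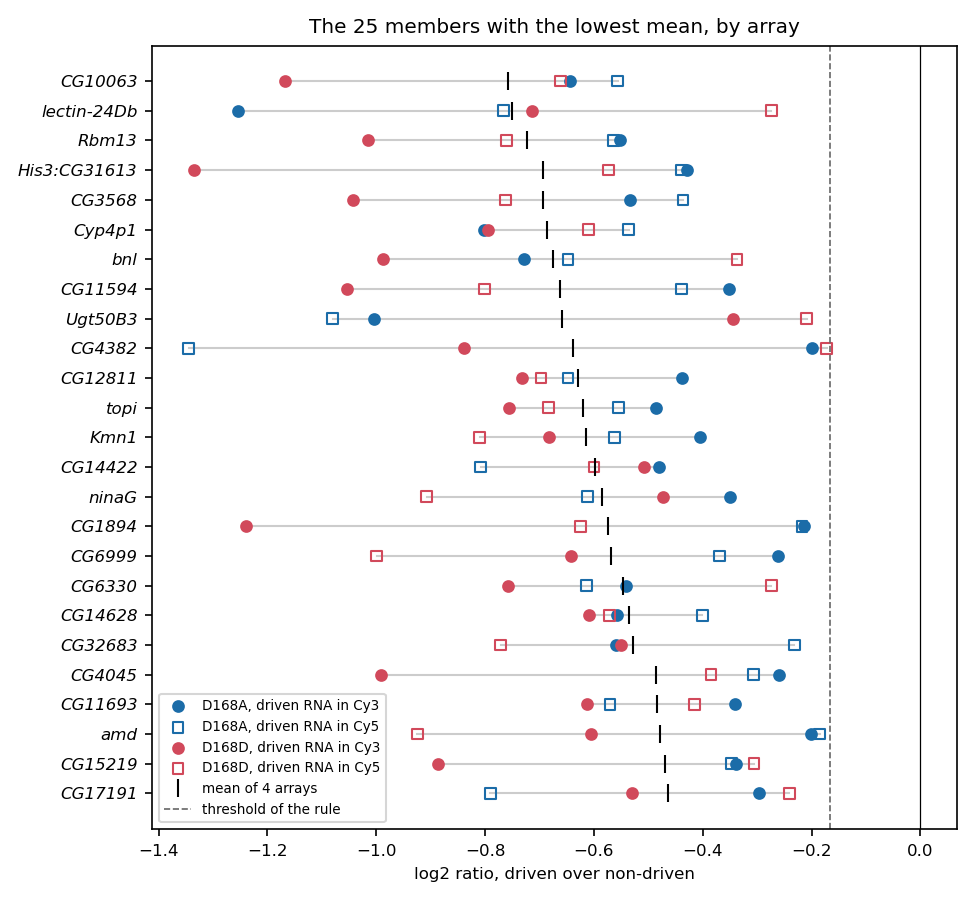
Log2 ratio of driven over non-driven pole cells (x axis) on each of the 4 arrays for the 25 members with the lowest mean (y axis). Circles are arrays with driven RNA in Cy3, squares those with it in Cy5, blue is D168A, red is D168D, black ticks are means of 4 arrays, and the dashed line is the threshold at -0.17. CG4382 and Ugt50B3 span wide ranges, while CG14628 and topi are even.

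Chromosome biology was represented by 8 members, with a median of -0.40. The histone gene His3:CG31613, a copy of histone H3 from the repeated histone cluster, was at -0.43 and -0.44 in the D168A pair and -1.34 and -0.57 in the D168D pair. Copies of histone genes are nearly identical, so its probe cannot be tied to this copy. Other histone genes, looked up after this value was seen, did not share the pattern. His1:CG31617 was at 0.42 in the mean of 4 arrays, His2A:CG31618 at -0.41 with 1 array above 0, His2B:CG17949 at -0.25 with arrays from -1.48 to 0.67, and His4:CG31611 at -0.04. CG1894, listed in RefSeq with the synonym HAT, was at -0.21 and -0.22 in the D168A pair and -1.24 and -0.62 in the D168D pair. Of all members it was the one lower with D168D by the most, with D168A minus D168D at 0.72 ± 0.31.

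Kmn1, a kinetochore protein also named Nsl1, was at -0.41 and -0.56 in the D168A pair and -0.68 and -0.81 in the D168D pair. Its 2 probes had means of -0.76 and -0.47 and were below 0 on all 4 arrays. Among DNA replication enzymes, RnrL, the large subunit of ribonucleotide reductase, which makes deoxynucleotides, was at -0.18 and -0.59 in the D168A pair and -0.42 and -0.30 in the D168D pair. Prim2, the large subunit of DNA primase, was at -0.28 ± 0.04 and -0.43 ± 0.16 in the forms. DNAlig1, the ligase that joins Okazaki fragments, was at -0.20 ± 0.0034 and -0.31 ± 0.05. Of the repair genes, mre11, a nuclease of the Mre11-Rad50-Nbs complex, was at -0.24 ± 0.02 and -0.30 ± 0.03. The SUMO ligase gene qjt of the Smc5/6 complex was at -0.27 ± 0.03 and -0.57 ± 0.27. The replication and repair genes were shallower than Kmn1, and each of them rests on a single probe.

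Genes of meiosis and of the testis gave 4 members with a median of -0.44. All 4 were lower with D168D by the form means, as were 79 of all 102 members. The lowest was topi, a zinc finger factor of the testis-specific meiotic arrest class that switches on spermatocyte genes, at -0.49 and -0.55 in the D168A pair and -0.76 and -0.68 in the D168D pair. The synaptonemal complex gene cona was at -0.19 and -0.27 in the D168A pair and -0.67 and -0.67 in the D168D pair. For cona both D168D arrays lay clearly below both D168A arrays. The double-stranded RNA-binding protein gene blanks, needed for sperm development, was at -0.27 ± 0.07 and -0.61 ± 0.29. A testis-specific bromodomain gene, tbrd-1, was at -0.33 ± 0.13 and -0.33 ± 0.03, nearly the same in both forms.

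Among signals, the FGF ligand gene bnl (branchless), which guides tracheal branches through the receptor Breathless, was the lowest. Its values were -0.73 and -0.65 in the D168A pair and -0.99 and -0.34 in the D168D pair. The 4 probes of bnl had means of -1.09, -0.74, -0.63 and -0.25, and 2 of them passed the threshold on every array. The receptor gene btl was at 0.05 in the mean of 4 arrays, and the other FGF ligands measured, pyr and ths, were at -0.0030 and -0.20. For pyr 3 arrays were above 0 and D-Cy5 alone was below, at -1.47. The EGF receptor antagonist aos (argos) was at -0.40 and -0.50 in the D168A pair and -0.20 and -0.20 in the D168D pair. Its 2 probes did not agree on the D168D arrays, where they gave 0.13 and -0.52 on D-Cy3 and -0.64 and 0.25 on D-Cy5. The even D168D value of aos is thus a mean of unlike probes.

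The remaining genes of this kind were shallow. The midkine and pleiotrophin family gene miple2 was at -0.20 ± 0.0013 with D168A and -0.44 ± 0.04 with D168D. Xxylt, which adds xylose to the sugar chains of Notch repeats, was at -0.20 ± 0.02 and -0.39 ± 0.04, and nac, the Golgi GDP-fucose transporter, at -0.25 ± 0.06 and -0.41 ± 0.22. The trafficking GTPase gene Rab14 and the seele gene sel were at -0.28 in the mean of 4 arrays. No probe of either gene passed the threshold on all 4 arrays, and those of sel gave -0.59 and 0.20 on D-Cy5. Of the mesodermal transcription factors, btn, the homeodomain gene of dorsal median cells, was at -0.39. The gene tey, which represses Toll in a body wall muscle, was at -0.23 and stood nearest to the threshold. Neither probe of tey passed on all 4 arrays, and their means were -0.38 and -0.08.

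Metabolic genes were shallow, with 10 members between -0.42 and -0.26 in the mean of 4 arrays. All were lower with D168D than with D168A by the form means, as were 79 of all 102 members. Between A-Cy5 and D-Cy5 the order was the reverse for CG4860 and Ctr1B. Tspo, the translocator protein of the outer mitochondrial membrane, was at -0.28 and -0.34 in the D168A pair and -0.35 and -0.72 in the D168D pair. Pcd, a pterin carbinolamine dehydratase, was at -0.32 ± 0.04 and -0.48 ± 0.19. The isocitrate dehydrogenase subunit gene Idh3g was at -0.24 ± 0.06 and -0.47 ± 0.18, while its partner subunits Idh3a and Idh3b were at -0.02 and 0.13 in the mean of 4 arrays. The subunits of this enzyme thus did not share a direction. Rim2, a mitochondrial nucleotide carrier, was among the even genes, with arrays from -0.37 to -0.26. Its 2 probes were less even, running from -0.55 to -0.22 and from -0.43 to -0.16. IscU, the scaffold on which iron-sulfur clusters are built, was at -0.26 in the mean, and the fatty acid oxidation genes CG4860 (synonym ACADS) and CG9577 (synonym ECH1) were at -0.32 and -0.27. The lipid droplet gene puml, the nucleotide hydrolase gene Datp and the copper importer gene Ctr1B were at -0.34, -0.32 and -0.26. No probe of IscU, CG4860 or puml passed the threshold on all 4 arrays. The probes of CG4860 gave 0.02 and -0.40 on A-Cy3 and -0.54 and 0.20 on D-Cy5. Of the 3 probes of Ctr1B, 1 had a mean of -0.65 and the others -0.09 and -0.06, so its low value rests on a single probe.

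Detoxification and pigment enzymes had the lowest median of the groups with a role, at -0.62 over 4 genes. The cytochrome P450 gene Cyp4p1 was at -0.80 and -0.54 in the D168A pair and -0.80 and -0.61 in the D168D pair, nearly equal in both forms. Ugt50B3, a UDP-glycosyltransferase, was at -1.003 and -1.08 in the D168A pair and -0.34 and -0.21 in the D168D pair. The arrays of the 2 forms were far apart, with a value of D168A minus D168D of -0.76 ± 0.11, the largest in this direction. Its 3 probes were all below -0.78 on both D168A arrays, while on the D168D arrays 2 of them had a value above 0. The chromophore enzyme gene ninaG was at -0.48 ± 0.13 and -0.69 ± 0.22, and the carboxylesterase gene clt at -0.33 ± 0.08 and -0.41 ± 0.10.

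Extracellular, immune and cuticle genes gave 10 members, from lectin-24Db at -0.75 to CG2493 (synonym Prcp) at -0.33. The decarboxylase family gene amd, needed for a sound cuticle, was at -0.20 and -0.19 in the D168A pair and -0.61 and -0.92 in the D168D pair, a difference of 0.57 ± 0.17. It was one of the members that were shallow with D168A and deep with D168D. The yellow family genes yellow-e3 and yellow-d were at -0.45 and -0.34 in the mean of 4 arrays. Sp7, a protease of the melanization cascade, was at -0.30 and -0.71 in the D168A pair and -0.38 and -0.18 in the D168D pair, and the serpin gene Spn42Dc at -0.33 ± 0.05 and -0.45 ± 0.22. Obp99a, an odorant-binding protein, was at -0.41 in the mean, the chitinase gene Cht2 at -0.37 and the lysosomal thiol reductase gene GILT2 at -0.34.

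A role is given here for 49 of the 102 genes, and 53 are left without one. Symbols that are only a CG number were held by 57 members (55.9%), against 42.9% of all genes. Among them, CG3568 was at -0.49 ± 0.05 with D168A and -0.90 ± 0.14 with D168D, and CG11594 at -0.40 ± 0.04 and -0.93 ± 0.13. CG12811 was at -0.54 ± 0.10 and -0.71 ± 0.02, and CG14422 at -0.64 ± 0.16 and -0.55 ± 0.05. For CG6999 the forms stood apart, at -0.32 ± 0.05 and -0.82 ± 0.18. The least even member was CG4382, at -0.20 and -1.34 in the D168A pair and -0.84 and -0.17 in the D168D pair. In CG4382 the arrays of a form differed more than the forms did. The values of CG6330, CG14628, CG32683, CG11693, CG15219 and CG17191 fill the range between -0.55 and -0.46 in the mean of 4 arrays. The 2 probes of CG32683 gave -1.83 and 0.29 on D-Cy5, and neither passed on all 4 arrays. The most even genes besides RNaseX25, whose probes differed, were CG15908 and CG32195, which spanned 0.09 and 0.07 over the 4 arrays. CG32706 and CG6999 are next to each other in the RefSeq gene order, and they were the only such pair (2 of 102 genes, 1.96%, against 6 of the 154 genes higher throughout, 3.9%).

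Related genes outside the rule mostly lay near 0. In 11 lists of partner genes (complexes, pathways or families of named members, drawn up after the members' values were seen), 134 genes were measured and 20 were members. Of the 114 others, 54 had a mean below 0, which compares with 50.3% over all genes. The list medians without the members ran from -0.06 for the lectins to 0.11 for ribosome assembly. In replication and nucleotide supply, 3 of 20 genes were members, and Prim1, the partner of Prim2, was at -0.09, PCNA at 0.14 and Mcm2 at 0.13. In double-strand break repair and the Smc5/6 complex, 2 of 14 were members, while rad50 was at 0.11, nbs at -0.10 and SMC5 at -0.18. Of the kinetochore genes 1 of 11 was a member, with Ndc80 at -0.11 and Cenp-C at 0.26. Among testis genes 3 of 13 were members, and 6 of the 10 others had a mean below 0. These others ran from tomb at -0.38 to tbrd-3 at 0.35, with comr at -0.02 and tbrd-2 at 0.07. Of the yellow family 2 of 12 were members, and yellow-f2 was at -0.45 without passing on every array.

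**Figure D3:**
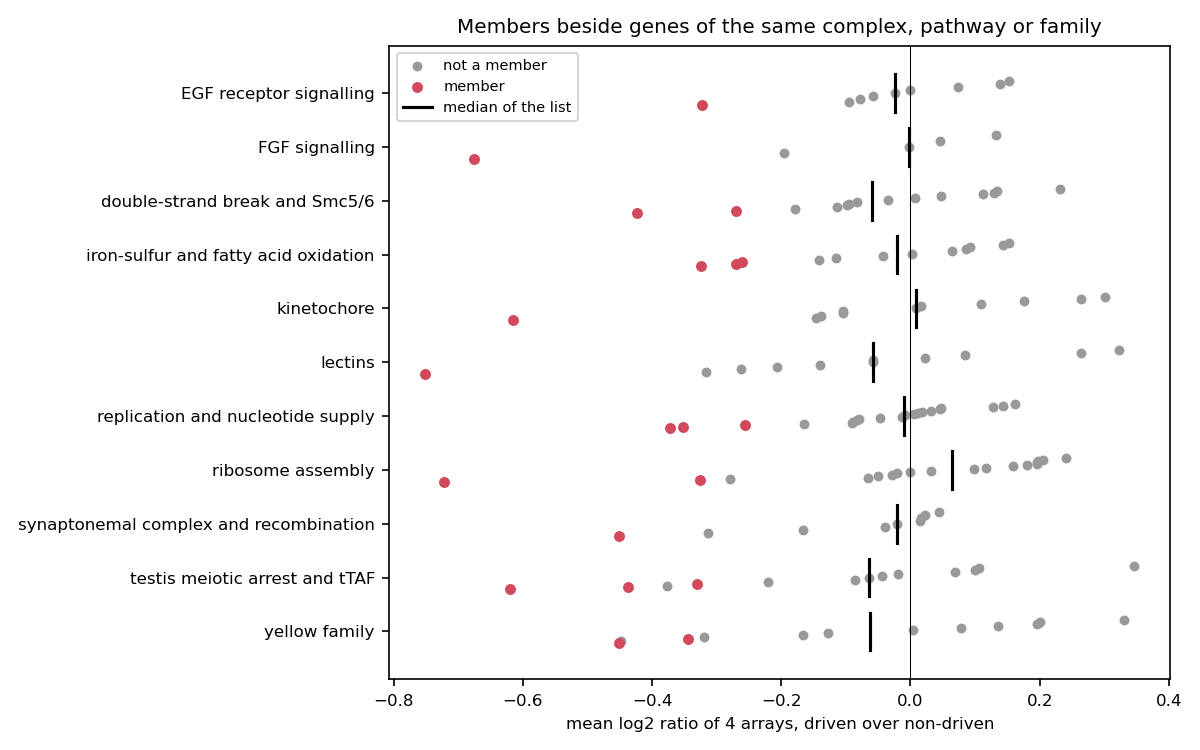
Mean log2 ratio over 4 arrays, driven over non-driven (x axis), of every measured gene in 11 lists of genes related to named members (y axis). Red points are members, which the rule placed at the low end, grey points are other genes, and black bars are list medians, which lie between -0.06 and 0.06.

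General lists of pathways, families and cell type markers held 5 of these genes. Over 23 such lists with 307 measured genes this was 1.63%, beside 102 of all 10804 genes. Before families were left out, 1.02% of all genes were lower throughout, so the share in the lists was not below that over all genes. They were Cyp4p1, 1 of 18 P450 genes, Ugt50B3, 1 of 15 redox and detoxification genes, Obp99a, 1 of 21 odorant-binding and pheromone genes, Idh3g, 1 of 7 citrate cycle genes, and Cht2, 1 of 9 markers of epidermis, cuticle and trachea. In 18 lists 0 genes were lower throughout, among them the germ line, Hippo pathway, apoptosis, heat shock, glycolysis, serine protease and antimicrobial lists. The serine protease list does not hold Sp7, which is a member. Also among the 18 were male germ line and accessory gland, fatty acid oxidation and lipid, mitochondrial import and carriers, and histones and chromatin assembly. With 19, 11, 13 and 5 measured genes, these lists do not hold the members topi, CG4860, Rim2 and His3:CG31613. Of 72 measured markers of 7 cell types the sort could hold (germ line, muscle, nervous system, epidermis, hemocytes and fat body, midgut and yolk, gonadal soma), Cht2 alone was lower throughout. Likewise 1 of the 72 was higher throughout. A count of 1 in 72 is near the share over all genes (1.02%), so nothing is read from it. The medians of these 7 lists over the mean of 4 arrays ran from -0.02 to 0.10, beside -0.0012 over all genes. The 8 genes that the symbol filter removed were Gr64c, Gr64f, GstD4, GstD5, GstE13, ND-MNLL, RpL37-1 and mRpL33. GstD5, at -0.86, was lower than any member.

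By the form means, more members were lower with D168D than with D168A. This held for 79 of 102 genes, and the median over members was -0.30 with D168A and -0.43 with D168D. The median value of D168A minus D168D was 0.12, beside 0.03 over all genes, and it was 0.20 between A-Cy3 and D-Cy3 and 0.05 between A-Cy5 and D-Cy5. In both dye orientations 50 genes were lower with D168D and 9 with D168A. Both D168D arrays lay below both D168A arrays for 41 genes, and the reverse held for 8. The same counts over all genes are not given here, so these counts are not read as a trait of the members. The D-Cy3 array gave the lowest value of 58 members. That array also had the widest spread over all genes, with an interquartile range of 0.51, against 0.24, 0.34 and 0.33 on A-Cy3, A-Cy5 and D-Cy5. The median member lay 1.14, 0.97, 0.99 and 1.06 interquartile ranges below 0 on A-Cy3, A-Cy5, D-Cy3 and D-Cy5. In units of each array's SD over all genes the median member was at -1.13, -0.93, -1.30 and -1.02 in the same order, deepest on D-Cy3. Each form is 1 replicate, so the difference between the forms has no test, and the part of array spread in it was not tested.

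**Figure D4:**
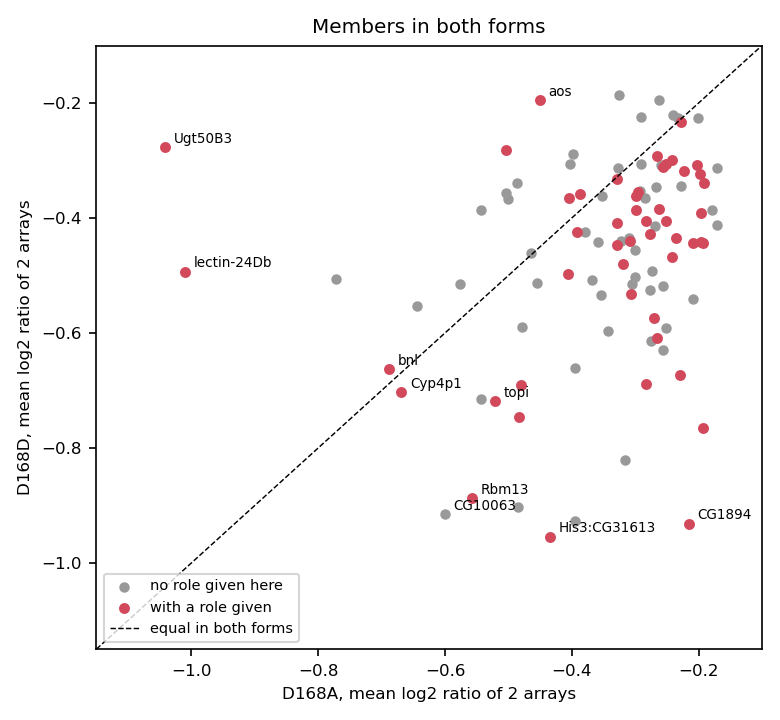
Mean log2 ratio of the 2 D168D arrays (y axis) against that of the 2 D168A arrays (x axis) for the 102 members, with genes given a role in red and others in grey. Points below the dashed line, 79 of 102, are lower with D168D, and Ugt50B3, lectin-24Db and aos lie on the other side. The same count over all genes is not given, so 79 is not read as a trait of the members.

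At the size used for larger changes, 2-fold on both arrays of a form, Ugt50B3 was the only gene of 10804 lower with D168A (0.00926%). With D168D 1 gene (0.00926%) met it, and it was not a member. At 1.5-fold, 8 genes (0.074%) were lower with D168A, 3 of them members (Ugt50B3, bnl and lectin-24Db). With D168D 34 genes (0.315%) were lower at 1.5-fold, and 12 were members, among them Rbm13, Cyp4p1, topi, Kmn1, cona, amd and CG1894. These shares use the same ratios as the rule and are a description. At -0.1 or lower on every array stood 16 members, of which 11 had a single probe. At -0.15 there were 3, which were CG10063, Rbm13 and Cyp4p1.

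Near the threshold, the highest array decided. The members nearest inside were tey, CG32195 and CG30373, with their highest array at -0.16625, -0.16651 and -0.16728 on the log2 scale. The genes nearest outside were Irbp18, Tep4 and Grx1, with their highest array at -0.16581, -0.16444 and -0.16426. For all 6 the deciding array was A-Cy3, the one with the narrowest spread. Irbp18, with a mean of -0.41, was lower in the mean than the median member.

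Probes of a gene often differed. A single probe stood for 62 of the 102 genes (60.8%, against 48.8% of all genes), 36 had 2 probes and 4 had more. Of the 40 genes with more than 1 probe, 5 had every probe at or below the threshold on all 4 arrays, 21 had every probe below 0 on all 4, and 39 had every probe mean below 0. The exception was CG4829, whose probes had means of -0.81 and 0.10. The widest gaps after it were those of bnl and Ctr1B, given above. CG14205 was the only member with a deposited ratio of 0 on a probe, against 4.36% of all genes with such a value. Its probes gave -0.44 and 0 on A-Cy3 and -1.50 and 0.60 on D-Cy5.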

How the data were processed

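The authors deposited a log10 ratio per feature and array, and the submitters' processing notes name Agilent Feature Extraction 7.1 as the software. How background, dye and centring were handled is not given in the sources used here. Base 10 was taken from that software's usual ratio, and the direction (driven over non-driven on all 4 arrays, no sign turned) from Tao. The platform annotation names exactly 1 gene for 17328 of 22575 features, several for 326 and no gene for 4921, and only the first kind was used. Probes were averaged to 10804 genes, thresholds were applied to the log10 values, and values are printed as log2. All 102 members matched the RefSeq gene table (Release 6 plus ISO1 MT) by gene ID. Its gene order was used for neighbours, and no coordinates are printed. Nothing in the labels says that a form had more than 1 collection of cells, so no p-value was computed. The number of arrays limits the precision.

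Named were the 25 members with the lowest mean, those in a listed set, those nearest the threshold, those that differ most between forms, those most even, those with a deposited 0, those at least 2-fold lower on both arrays of a form and those whose probe means differ in sign, beside Tao. Members with a role, partner and histone genes and the other probe gaps were named after their values were seen. Members and lists were chosen with earlier results of these data known. Protein lengths, chromosomes and promoter motifs, which had been planned, were not used here. The rule was tried on simulated data with far less noise than the arrays. That trial checks the code only and cannot say how often genes pass falsely here. Python 3.11.15, pandas 2.3.3 and numpy 2.4.6 were used. Alternatives changed the threshold, the treatment of probes, zeros and centring, the sign of the Cy3-driven arrays and the arrays required.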

Additional observations from a re-analysis of the deposited data

How the results depend on the processing

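Counts are of genes lower on all 4 arrays outside the left-out families, where 102 were reported. A threshold of -0.075 left 34 and -0.1 left 16, by construction. With every probe required to pass 67 were left, and with genes of 2 or more probes 40. The mirror count of genes higher throughout was 154. With 1 array left out at a time the count ran from 142 (without D-Cy3) to 350 (without A-Cy3), since 3 arrays are a weaker demand. It was 175 without A-Cy5 and 272 without D-Cy5. Arrays of D168A alone gave 359, of D168D alone 779, with driven RNA in Cy3 alone 949 and in Cy5 alone 846. Within 1.5 times of the reported count were a threshold of -0.04 (147), the median over probes (100), centring each array (103), leaving out features with a 0 (102, of which 101 are the reported genes), no family left out (110) and the sign of the Cy3-driven arrays turned (105). The last are other genes, with 0 shared. The dye patterns counted apart, added after the data were seen, gave 139 and 105. Genes 2-fold lower on both arrays went from 1 to 8 with D168A and from 1 to 34 with D168D at 1.5-fold.

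For 66 members with a value followed through the alternatives, 443 of 462 values moved by no more than the larger ± of the gene's 2 forms, 19 moved further and 0 changed sign. CG14205 went to -0.68 without the feature that held a 0. Of the others, 18 came from leaving out an array. Leaving out an array could not change a sign, since the rule placed every member below 0 on every array. The absence of sign changes there is by construction and is not read as stability. Nor is the count of 443, since many of the 462 values could hardly move. The median over probes equals the mean for genes with 1 or 2 probes. Leaving out zeros could change CG14205 alone, and centring shifted the mean of every gene by the same small amount. The median difference between the forms over members stayed between 0.05 and 0.20 under the alternatives tried. No paired analysis was possible because the 2 arrays of a form are 1 replicate and no result comes from a test. No intensities were used, so what signal over background limits is unknown.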

Other observations

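Features without a single gene symbol held the same pattern at a like rate. Of 4921 features with no symbol, 37 (0.752%) were at or below -0.05 on all 4 arrays and 61 were at or above 0.05. Of 17328 features with 1 symbol the counts were 157 (0.906%) and 278, and of 326 features with several symbols 0 and 5.

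The reach of the 2 directions differed more than their counts did. Among genes higher throughout, the mean over 4 arrays reached 2.96, for Tao, and 71 of 154 had a mean of 0.5 or higher. Among genes lower throughout, 20 of 102 had a mean of -0.5 or lower and the lowest was at -0.76. At 0.2 on the log10 scale 15 genes were higher on all 4 arrays and 0 were lower. These values had no test, since the same arrays chose the genes.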
